A study of Mus musculus with 11 samples.

Results

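The genes described here are a set of 40 mouse immediate early and handling stress genes. Many of them are switched on quickly when cells are stimulated, stressed or handled, while some are kept on at rest or induced later. They were chosen by symbol from the table of read counts and fall into 5 roles: 10 AP-1 and ATF transcription factors, 8 other induced transcription factors of the Egr and Klf families with Myc, 7 genes of the Ier, Gadd45, Rhob and Ppp1r15a kind, 10 feedback inhibitors, and 5 heat shock genes. All 40 were found among the 24411 symbols of the table, and all 40 were among the 16011 genes with enough counts to be tested. Expression was measured by bulk RNA sequencing of lung mesenchymal cells from C57BL6 mice, sorted without EpCAM, CD45 or CD31 on their surface, which mark epithelial, haematopoietic and endothelial cells. The groups were PNX (pneumonectomy, removal of lung tissue) at day 7 with 3 libraries, sham surgery at day 7 with 3, PNX at day 14 with 3 and sham surgery at day 14 with 2. None of these groups is without surgery. The labels name no transgene, and they do not say whether the replicates were separate animals or pools, so a p-value here sets a difference against the spread of libraries, part of which may be technical.

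Immediate early genes are transcribed from factors already present in the cell, without new protein synthesis. Their promoters are reached by the serum response factor with its ternary complex partners, by CREB and ATF proteins, and by NF-kappaB, and the first products are themselves transcription factors such as Fos, Jun and Egr1. A second set of early products ends the response: Dusp phosphatases switch off MAP kinases, Zfp36 proteins promote decay of the short-lived mRNAs, and Nfkbia holds NF-kappaB in the cytoplasm. Enzymatic dissociation of tissue and cell sorting are known to induce many of these genes, heat shock chaperones included, so that levels in sorted cells can reflect the tissue, the handling or both. In bulk samples, fewer cells of a type and less RNA per cell cannot be told apart.

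The 10 mesenchymal markers, among them Pdgfra and Col1a1, all had counts in every library and summed to between 13273 and 28462 CPM (a gene's counts relative to the library's total, scaled by TMM factors, the unit of all levels below except the background). Markers of other cell types were present too. Summed over a library, 15 haematopoietic markers took 115 to 848 CPM, 10 endothelial markers 141 to 1421 CPM, 12 epithelial markers 217 to 18462 CPM and 5 erythroid markers 254 to 79877 CPM. Total counts per library ran from 2539628 to 9008592. Olfactory and vomeronasal receptor genes, read here as background, took 91.6 to 1630 CPM, relative to total counts without TMM factors. It was highest in replicate 1 of sham at day 14 (1630 CPM), then in replicate 2 of PNX at day 7 (1210 CPM) and in replicate 2 of sham at day 7 (653 CPM).

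The 40 genes took 2.93%, 3.03% and 2.98% of all counts in the PNX libraries of day 7 (replicates 1, 2 and 3, the order used throughout), against 4.35%, 5.57% and 5.79% in the sham libraries of day 7. At day 14 the shares were 2.77%, 1.77% and 2.02% after PNX, against 2.44% and 3.57% after sham. The Wilson 95% intervals of these shares, which cover counting error only, were at most 0.0445 percentage points wide. The 3 sham libraries of day 7 stood above every other library, and the 3 PNX libraries of day 7 lay close together.

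**Figure D1:**
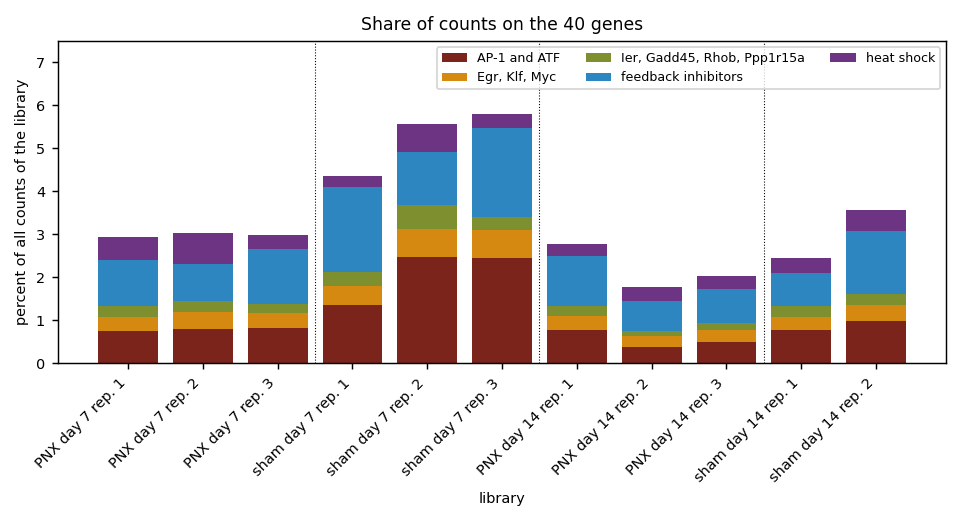
Percent of all counts of a library (vertical axis) on the 40 genes, 1 bar per library, stacked by role and starting at 0. The sham libraries of day 7 reach 4.35% to 5.79%, while the other libraries lie between 1.77% and 3.57%.

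Per kilobase of the longest transcript, the scale on which genes can be compared, Dusp1 was the most abundant of the 40 in every group. This phosphatase of stress-activated MAP kinases averaged 2217 CPM per kb after PNX at day 7 and 3779 CPM per kb after sham at day 7. Fos was next after PNX at day 7, at 1601 CPM per kb. After sham at day 7 the next was Junb, at 3754 CPM per kb, with single libraries between 816 and 6295. That range overlaps the ranges of Dusp1 (1737 to 5444 CPM per kb) and Fos (2289 to 3505 CPM per kb), so the order of these 3 genes in that group is not beyond the spread. Dusp2 and Dusp5, phosphatases that act on ERK in the nucleus, were the least abundant in every group, with 2 to 26 counts for Dusp2 and 3 to 24 counts for Dusp5 in a library. Their fold changes carry large errors, and they enter only the counts below.

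The genes also varied more from library to library than most. Among the 37 with a mean of at least 20 CPM, the median within-group SD was 0.56 on the log2 scale, against 0.43 for the 6892 tested genes of that level. Junb had the widest range, with its highest library 133-fold above its lowest, followed by Hspa1a at 27.4-fold. Dusp6 had the narrowest, at 1.97-fold. Sham day 7 replicate 3 was the highest library for 16 of the 40 genes (40%), a place it held for 18.3% of all tested genes.

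**Figure D2:**
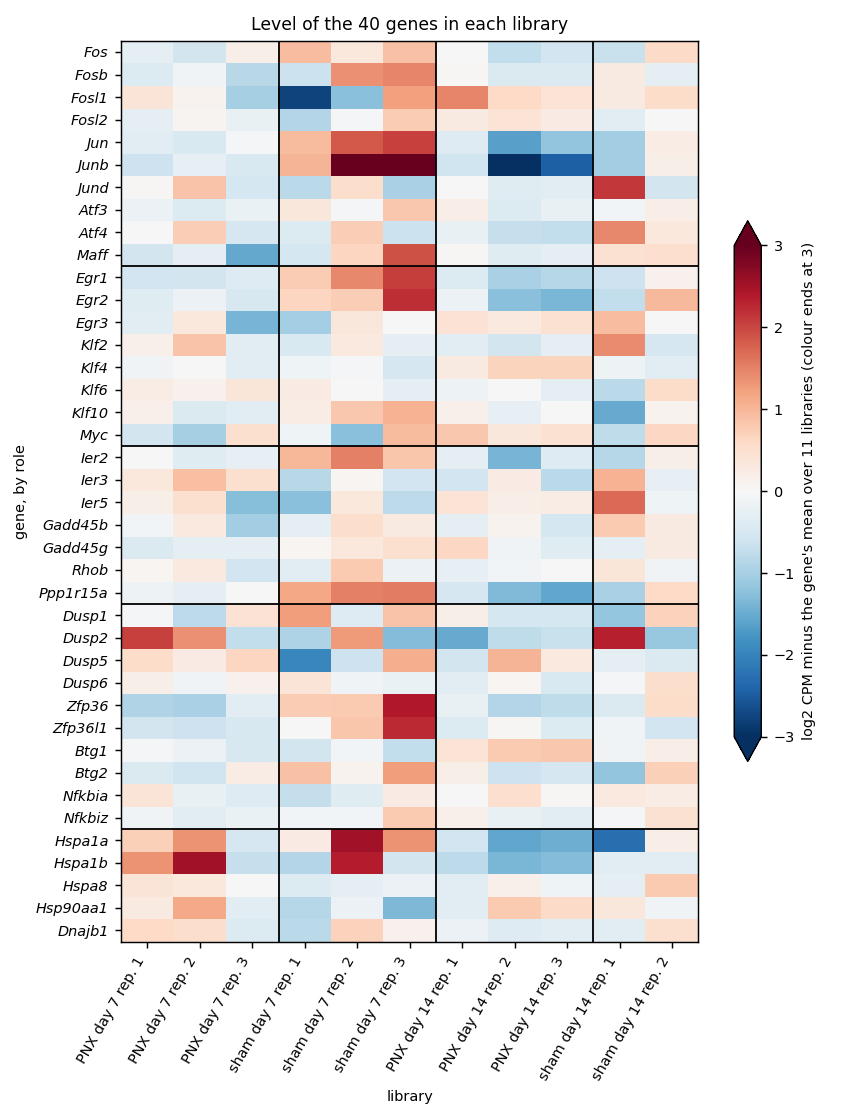
Level of each gene in each library as log2 CPM minus the gene's mean over the 11 libraries, with genes down the page by role (separated by lines) and libraries across by group; the colour scale ends at 3 in each direction. Red cells gather in the sham libraries of day 7 for Jun, Junb, Egr1, Egr2, Ier2, Ppp1r15a, Zfp36 and Zfp36l1, while Jund, Klf2, Ier5 and Atf4 are darkest in sham day 14 replicate 1.

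At day 7, Fos, Jun, Junb, Egr1, Egr2, Ppp1r15a, Zfp36 and Zfp36l1 were among 13 genes lower in every PNX than in every sham library, but no gene of the 40 passed the test. By edgeR's quasi-likelihood test with Benjamini-Hochberg adjustment over all genes, 0 of 40 had an adjusted p under 0.05 in either direction, and of all genes tested 0.0375% passed as higher and 0% as lower. At an unadjusted p below 0.05 stood 13 lower and 2 higher genes, where 8.07% and 4.66% of all genes were. DESeq2 called 10 of the 40 and limma voom with sample weights called 8, all of them lower after PNX, where these tools called 2.85% and 5.16% of all genes in either direction. In 13 genes every PNX library lay below every sham library (32.5%, against 9.57% of all genes tested), and in 2, Ier3 and Hspa8, every PNX library lay above (5%, against 9.95%). The median log2 fold change, PNX over sham, was -0.28 over the 40 genes and 0.03 over all genes, with 24 genes lower and 16 higher. With an offset for GC content the median of the 40 was -0.07, with 21 lower and 19 higher, and that of all genes 0.118. Without sham replicate 3 the median of the 40 was -0.13, and without sham replicate 1 it was -0.52.

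**Figure D3:**
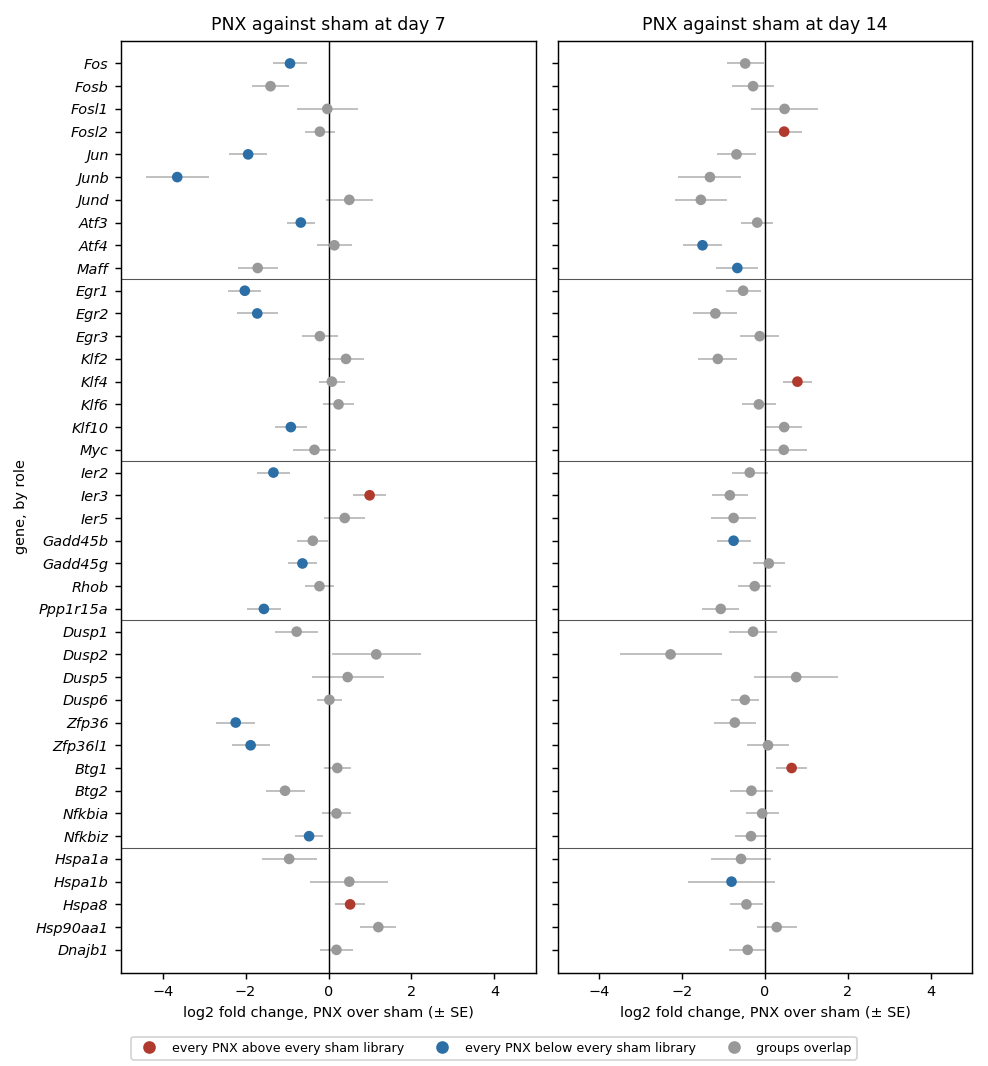
Log2 fold change, PNX over sham (horizontal axis, bars are SE of the edgeR fit), of the 40 genes by role at day 7 (left) and day 14 (right). Blue points are genes whose PNX libraries all lie below the sham libraries, 13 at day 7 and 4 at day 14; red points are genes whose PNX libraries all lie above, 2 at day 7 and 3 at day 14.

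Jun and Fos proteins pair to form AP-1, and Junb is the inducible Jun protein that often tempers the activity of Jun. Of the 10 AP-1 and ATF factors, 8 were lower and 2 higher after PNX at day 7, with a median log2 fold change of -0.80. At an unadjusted p below 0.05 stood 5, all lower, where 8.07% of all genes were lower. Junb had 473, 614 and 533 CPM in the PNX libraries, against 1477, 7507 and 11387 CPM in the sham libraries. The groups do not overlap, and the PNX libraries agree closely while the sham libraries span a wide range. Its log2 fold change was -3.65 ± 0.76 (SE), with an adjusted p of 0.0785 by edgeR's quasi-likelihood test. Jun had 1365, 1244 and 1675 CPM after PNX, against 3319, 6100 and 7075 CPM after sham. Again each sham library exceeded each PNX library, with a log2 fold change of -1.94 ± 0.45 (SE) and an edgeR adjusted p of 0.0853.

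Fos, the partner of the Jun proteins, was high everywhere. It had 3145, 2628 and 4351 CPM after PNX, against 7388, 4825 and 7095 CPM after sham, without overlap. The log2 fold change was -0.93 ± 0.41 (SE) and the edgeR adjusted p 0.350. Fosb, a close relative of Fos, had 522, 648 and 391 CPM after PNX, against 441, 1783 and 1909 CPM after sham. Here sham replicate 1 lies within the PNX range, and the log2 fold change was -1.40 ± 0.45 (SE; edgeR adjusted p 0.181). Maff, a small Maf protein without a transactivation domain, had 46.7, 56.5 and 23.9 CPM after PNX, against 47.5, 108 and 258 CPM after sham. The groups meet at sham replicate 1, and the log2 fold change of -1.71 ± 0.48 (SE; edgeR adjusted p 0.135) stood at -0.88 without sham replicate 3. Atf3, a repressor induced by many stresses, had 646 to 764 CPM after PNX and 834 to 1511 CPM after sham, also without overlap. Jund, the Jun gene that cells keep on at rest, and Atf4, which is governed largely through its translation, had log2 fold changes of 0.50 ± 0.57 and 0.14 ± 0.42 (SE). Fosl1 and Fosl2, Fos relatives that are induced later, stood at -0.03 ± 0.73 and -0.21 ± 0.37 (SE).

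The makeup of the Jun family differed between the libraries as well. Per kilobase, Junb made up 32.8%, 36.8% and 32.9% of the sum of Jun, Junb and Jund after PNX at day 7, against 42.6%, 66.8% and 73.5% after sham. At day 14 its part was 34.1%, 15.5% and 18.5% after PNX, against 21.5% and 39.3% after sham. The day 7 groups do not overlap and those of day 14 do. Jund took 50.3% of the family in sham day 14 replicate 1 and at most 27.0% in every other library. Within the Fos family, Fos itself dominated, at 82.0% to 96.3% in the libraries of day 7.

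Junb lies at chr8:84974484-84978718 on the minus strand (GRCm38, GENCODE M21) and overlaps Prdx2 on the opposite strand. Prdx2, an antioxidant peroxiredoxin, had 207, 200 and 206 CPM after PNX at day 7, against 153, 101 and 124 CPM after sham, the opposite order to Junb. Since the strand setting of the counting is not given in the sources used here, reads in the overlap cannot be assigned with certainty. The same holds for Jun with Junos, Jund with Gm11175, Fosl1 with Ccdc85b, Dusp1 with Ergic1 and Ppp1r15a with Tulp2. It also holds for Zfp36 with Gm44710, Zfp36l1 with Gm26669, Atf3 with Gm24748, Hspa1a with Gm20481 and Dusp5 with AC137853.2. Tulp2 had at most 9.1 CPM.

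The 250 bases before the starts of Fos and Junb are shown since these were the most abundant AP-1 genes per kilobase in the sham libraries of day 7. They are from RefSeq on GRCm38.p6, at chr12:85473640-85473889 on the plus strand and chr8:84978749-84978998 on the minus strand, written 5′ to 3′. Capitals mark TGACG, the core site that CREB and ATF proteins read, on either strand.
Fos: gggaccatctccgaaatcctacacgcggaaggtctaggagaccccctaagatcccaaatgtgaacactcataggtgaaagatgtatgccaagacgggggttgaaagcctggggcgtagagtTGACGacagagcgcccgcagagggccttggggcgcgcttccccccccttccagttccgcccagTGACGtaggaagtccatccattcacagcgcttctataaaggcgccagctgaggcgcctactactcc
Junb: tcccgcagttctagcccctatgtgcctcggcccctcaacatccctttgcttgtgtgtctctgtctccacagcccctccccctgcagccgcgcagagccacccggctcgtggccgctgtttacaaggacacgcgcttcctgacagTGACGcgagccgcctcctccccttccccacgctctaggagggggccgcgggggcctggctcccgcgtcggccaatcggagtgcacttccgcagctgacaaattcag
Fos holds the core site 129 and 66 bases before its start, and Junb holds it 106 bases before. RefSeq promoters were matched for 31 of the 40 genes. Those of Egr1, Egr3, Klf10, Ier2, Nfkbiz, Fosl1, Hsp90aa1, Myc and Hspa8 were not searched for any motif. TGACG occurred in 15 of the 31 genes, and in 17.8% of all 32851 promoters of this length. A gene was counted if any of its promoters held the site, whereas the share of all promoters counts single promoters. A gene with several starts has several chances of a match, so these numbers, here and below, are not like for like. The AP-1 site TGANTCA occurred in 1 of the 31 (Zfp36l1), against 6.75% of all promoters. A match describes the letters in this window and does not show that a factor binds there.

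**Figure D4:**
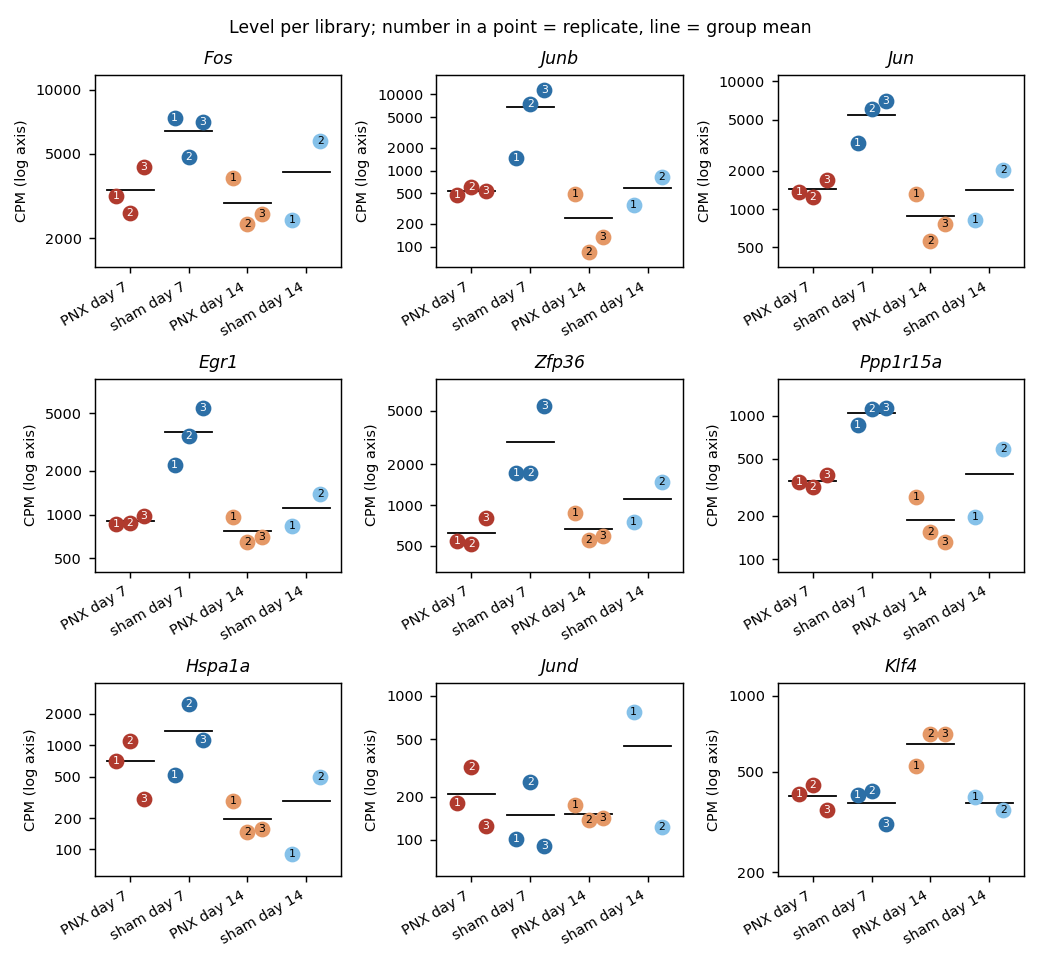
CPM of 9 genes in each library on log axes, with the replicate number inside each point and a line at each group's mean; groups run from PNX to sham at day 7 and then at day 14. For Fos, Junb, Jun, Egr1, Zfp36 and Ppp1r15a the 3 sham libraries of day 7 lie above the 3 PNX libraries of day 7; Jund is high in 1 sham library of day 14, and Klf4 is highest in the PNX libraries of day 14.

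Egr1, a zinc finger factor induced by growth factors and mechanical strain, had the smallest p of the 40 at day 7. It had 868, 876 and 983 CPM after PNX, against 2180, 3482 and 5383 CPM after sham. Every sham library exceeded every PNX library by more than the PNX libraries differed among themselves. The log2 fold change was -2.02 ± 0.40 (SE), a 4.05-fold difference, with an edgeR adjusted p of 0.0606. Egr2, its relative, had 44.5, 50.4 and 40.6 CPM after PNX, against 89.0, 95.4 and 263 CPM after sham. These groups do not overlap either, and the log2 fold change of -1.72 ± 0.49 (SE; edgeR adjusted p 0.139) was -1.03 without sham replicate 3. Egr3, the third of these relatives in the set, had 8.35 to 27.1 CPM after PNX and 10.8 to 27.7 CPM after sham.

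Of the Klf factors only Klf10 had groups that were apart. Klf10, which is induced by TGF-beta, had 110 to 164 CPM after PNX and 173 to 306 CPM after sham, with a log2 fold change of -0.91 ± 0.39 (SE; edgeR adjusted p 0.322). Klf2, Klf4 and Klf6, zinc finger factors of the same family, had log2 fold changes of 0.42 ± 0.43, 0.08 ± 0.31 and 0.24 ± 0.37 (SE), each with overlapping groups. Klf4 had the smallest within-group SD of the set, 0.21 on the log2 scale, at 353 to 442 CPM after PNX and 310 to 421 CPM after sham. Myc, a driver of growth and division, ranged from 104 to 288 CPM after PNX and from 86.6 to 401 CPM after sham. Over the 8 factors of this role, 5 were lower and 3 higher, with a median of -0.28.

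Among the genes of the Ier, Gadd45, Rhob and Ppp1r15a kind, 5 of 7 were lower and 2 higher after PNX at day 7, with a median of -0.38. Ppp1r15a, also called Gadd34, guides a phosphatase to the translation factor eIF2alpha and so lets protein synthesis resume after stress. It had 346, 320 and 387 CPM after PNX, against 866, 1110 and 1131 CPM after sham. Both groups were tight and apart, and its log2 fold change of -1.56 ± 0.41 (SE; edgeR adjusted p 0.110) moved only between -1.68 and -1.49 when each library was left out in turn. Ier2, a nuclear protein of the early response, had 778, 592 and 649 CPM after PNX, against 1524, 2187 and 1362 CPM after sham. These groups were apart as well, with a log2 fold change of -1.33 ± 0.39 (SE; edgeR adjusted p 0.151).

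Ier3, an early gene that acts on cell survival, went the other way. It had 152, 228 and 172 CPM after PNX, against 68.7, 128 and 82.2 CPM after sham. All PNX libraries lie above all sham libraries, with a log2 fold change of 0.99 ± 0.39 (SE) and an edgeR adjusted p of 0.284. Gadd45g, a growth arrest gene, had 445 to 490 CPM after PNX and 628 to 831 CPM after sham, a smaller difference without overlap (log2 fold change -0.63 ± 0.34 SE). Its relative Gadd45b, the small GTPase gene Rhob and Ier5 had overlapping groups.

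The promoter of Ppp1r15a is shown because it holds the full palindrome TGACGTCA, the cAMP response element (CRE), in capitals. It is RefSeq sequence on GRCm38.p6, chr7:45526269-45526518, minus strand, 5′ to 3′.
Ppp1r15a: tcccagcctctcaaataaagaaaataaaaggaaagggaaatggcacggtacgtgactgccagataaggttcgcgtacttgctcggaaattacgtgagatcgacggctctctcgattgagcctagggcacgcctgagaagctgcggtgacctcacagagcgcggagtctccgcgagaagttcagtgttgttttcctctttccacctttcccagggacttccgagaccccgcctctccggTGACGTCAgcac
The element begins 12 bases before the start. It occurred in 4 of the 31 genes of the set (Maff, Ppp1r15a, Dusp1 and Btg2) and in 1.55% of all promoters, and each such match also holds TGACG.

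Among the 10 feedback inhibitors, both Zfp36 genes had the smallest p at day 7. Zfp36, or tristetraprolin, binds AU-rich elements of early mRNAs and speeds their removal. It had 545, 516 and 808 CPM after PNX at day 7, against 1726, 1731 and 5371 CPM after sham. The groups are apart, and sham replicate 3 is far above the other sham libraries. The log2 fold change was -2.24 ± 0.47 (SE) with an edgeR adjusted p of 0.0752, and -1.47 without sham replicate 3. Zfp36l1, a member of the same family, had 373, 358 and 391 CPM after PNX, against 555, 978 and 2591 CPM after sham. Its PNX libraries were nearly equal, and the log2 fold change of -1.88 ± 0.46 (SE; edgeR adjusted p 0.0981) was -1.04 without sham replicate 3.

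Dusp1 had 5150, 3081 and 7155 CPM after PNX, against 12592, 4018 and 9610 CPM after sham, with overlapping groups and a log2 fold change of -0.77 ± 0.51 (SE; edgeR adjusted p 0.609). Btg2, an antiproliferative gene that recruits the deadenylase machinery, had 1676, 1481 and 2624 CPM after PNX, against 4162, 2421 and 5355 CPM after sham. Sham replicate 2 lies just within the PNX range for Btg2 and between PNX replicates 2 and 1 for Dusp1, so in both genes it was the lowest of its group. Nfkbiz, a nuclear regulator of NF-kappaB, had 374 to 441 CPM after PNX and 444 to 814 CPM after sham, barely apart. Nfkbia, Btg1 and the cytoplasmic ERK phosphatase gene Dusp6 had log2 fold changes of 0.19 ± 0.36, 0.21 ± 0.32 and 0.02 ± 0.31 (SE). In this role 5 genes were lower and 5 higher, with a median of -0.22.

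Zfp36 had the second smallest p of the 40 at day 7, and its promoter holds a CArG box, the site of the serum response factor. The sequence is from RefSeq on GRCm38.p6, chr7:28379229-28379478, minus strand, 5′ to 3′, with the box in capitals.
Zfp36: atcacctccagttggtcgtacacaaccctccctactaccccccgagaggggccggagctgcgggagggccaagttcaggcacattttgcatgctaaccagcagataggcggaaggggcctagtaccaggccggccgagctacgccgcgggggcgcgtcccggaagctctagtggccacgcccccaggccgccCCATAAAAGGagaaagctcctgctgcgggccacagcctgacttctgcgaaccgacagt
The box begins 58 bases before the start. CArG boxes occurred in 3 of the 31 genes (Egr2, Dusp5 and Zfp36) and in 1.47% of all promoters, and Egr1 was not among the genes searched. Sites farther than 250 bases from a start are not covered. NF-kappaB sites occurred in 6 of the 31 (Fos, Fosb, Fosl2, Maff, Ier3 and Nfkbia), against 3.9% of all promoters.

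Of the 5 heat shock genes, 4 were higher and 1 lower after PNX at day 7, with a median log2 fold change of 0.50. Hsp90aa1, the inducible cytosolic Hsp90 chaperone, had 676, 1239 and 455 CPM after PNX, against 311, 499 and 223 CPM after sham. PNX replicate 3 lies below sham replicate 2, so the groups overlap, and the log2 fold change was 1.2 ± 0.43 (SE; edgeR adjusted p 0.234). Hspa8, the Hsp70 chaperone that cells keep on at all times, had 2709, 2575 and 2092 CPM after PNX, against 1566, 1732 and 1834 CPM after sham. These groups are apart, though the fold change is small (log2 0.52 ± 0.36 SE, edgeR adjusted p 0.625). Hspa1a, a strictly inducible Hsp70 gene, had 711, 1098 and 303 CPM after PNX, against 515, 2462 and 1107 CPM after sham. Its copy Hspa1b had 118, 266 and 28.8 CPM after PNX, against 25.2, 236 and 31.6 CPM after sham. In both genes the spread within a group was as wide as the difference between groups. Dnajb1, a co-chaperone of Hsp70, had 374 to 759 CPM after PNX and 283 to 799 CPM after sham.

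Reads of Hspa1a and Hspa1b may be split between near-identical copies, and their single values are uncertain. Both promoters are shown to make this likeness visible; they are RefSeq on GRCm38.p6, chr17:34972157-34972406 and chr17:34959239-34959488, minus strand, 5′ to 3′. Capitals mark the heat shock element GAANNTTC, which begins 104 bases before each start.
Hspa1a: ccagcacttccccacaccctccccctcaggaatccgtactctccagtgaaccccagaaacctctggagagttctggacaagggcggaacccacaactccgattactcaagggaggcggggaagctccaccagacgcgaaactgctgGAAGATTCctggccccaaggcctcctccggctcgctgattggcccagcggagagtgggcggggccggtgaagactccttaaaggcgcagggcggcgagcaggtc
Hspa1b: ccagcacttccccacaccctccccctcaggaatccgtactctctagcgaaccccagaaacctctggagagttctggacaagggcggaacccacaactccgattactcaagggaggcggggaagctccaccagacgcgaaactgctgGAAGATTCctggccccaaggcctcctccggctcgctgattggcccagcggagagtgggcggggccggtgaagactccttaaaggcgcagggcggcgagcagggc
They are identical at 247 of 250 bases (98.8%). GAANNTTC occurred in 4 of the 31 genes (Fosl2, Jun, Hspa1a and Hspa1b), against 6.69% of all promoters. The matches in the copies Hspa1a and Hspa1b are not separate ones. The same units in the other order, TTCNNGAA, occurred in 1 of the 31 (Egr2), against 7.17% of all promoters.

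GC content and the markers of other cells were measured beside these levels at day 7. The rank correlation, across genes of 1 library, between GC content and the deviation from the mean of all libraries was 0.085, 0.202 and -0.159 in the PNX libraries of day 7, against -0.121, 0.44 and 0.22 in the sham libraries; genes are not independent replicates. The 13 genes that lay below sham in every PNX library had a median GC content of 54.1%, and the 25 genes with overlapping groups one of 54.6%. With an offset for GC content, the log2 fold changes at day 7 were -3.0 for Junb, -1.62 for Egr1, -1.96 for Zfp36, -1.63 for Jun and -1.27 for Ppp1r15a, and 11 of the 40 genes lay below sham in every PNX library, against 9.5% of all genes. Without the 3 libraries of highest background the same 5 genes stood at -3.70, -2.05, -2.41, -1.79 and -1.46. Haematopoietic markers summed to 181, 117 and 127 CPM after PNX and 136, 693 and 115 CPM after sham, and epithelial markers to 2647, 2200 and 990 CPM after PNX and 1821, 13633 and 217 CPM after sham. Sham replicate 3, in which 16 of the 40 genes were highest, had the lowest of both marker sums at day 7. Single haematopoietic markers did not all follow the sum. Ptprc, the CD45 gene, and Coro1a had 22.6 and 30.6 CPM in that library, their highest of day 7. S100a9 had 1.16 CPM there, below the PNX libraries of day 7. Endothelial markers summed to 1421, 611 and 141 CPM after PNX and 270, 822 and 234 CPM after sham, so that in the sums of all 3 lists the groups overlap. Of the endothelial markers 9 of 10 had a higher fitted level after PNX, with a median log2 fold change of 1.08, and 0 were at an unadjusted p below 0.05. The median was -0.26 for the haematopoietic markers (7 higher, 8 lower), -0.43 for the epithelial (4 higher, 8 lower), 0.12 for the erythroid (4 higher, 1 lower) and -0.35 for the mesenchymal (4 higher, 6 lower). The epithelial markers Krt18 and Krt8 were higher in every PNX than in every sham library of day 7. Their log2 fold changes were 1.64 ± 0.34 and 1.64 ± 0.36 (SE), with edgeR adjusted p of 0.0752 and 0.0783. They were the 2 of 12 epithelial markers at an unadjusted p below 0.05, where 4.66% of all genes were higher. By edgeR 0 markers of these lists passed at day 7. Their part in the levels of the 40 genes was not tested.

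**Figure D5:**
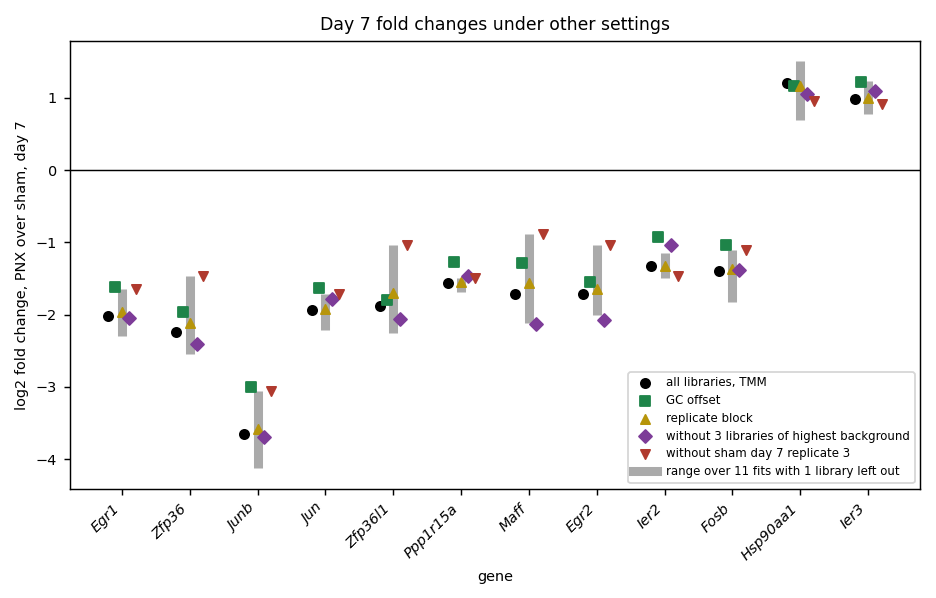
Log2 fold change at day 7, PNX over sham (vertical axis), of the 12 genes of smallest p, under the fit of all libraries and under 4 other settings, with a grey bar for the range over 11 fits that each leave out 1 library. All values of the first 10 genes lie below 0 and those of Hsp90aa1 and Ier3 above; Junb runs from -4.13 to -3.06, and Maff reaches -0.88.

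At day 14 Klf4, Btg1 and Fosl2 were higher in every PNX than in every sham library and Atf4, Maff, Gadd45b and Hspa1b lower, but again no gene passed the test. By edgeR's quasi-likelihood test 0 of 40 passed in either direction, and DESeq2 and limma voom also called 0; of all genes tested, edgeR called 0.00625% as higher and 0% as lower. At an unadjusted p below 0.05 stood 1 higher and 5 lower genes, where 3.19% and 3.63% of all genes were. Every PNX library lay below every sham library in 4 genes (10%, against 8.28% of all genes) and above in 3 (7.5%, against 9.57%), shares near those of all genes. The median log2 fold change was -0.40 over the 40 genes and -0.07 over all genes, with 30 lower and 10 higher. Without sham replicate 2 the median of the 40 was 0.06, with 15 lower and 25 higher, so the direction of the set rests on that library.

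Klf4, which opposes contractile genes in smooth muscle cells, was the 1 gene higher at an unadjusted p below 0.05. It had 528, 704 and 704 CPM after PNX at day 14, against 396 and 354 CPM after sham. All PNX libraries lie above both sham libraries and above all libraries of day 7, with a log2 fold change of 0.78 ± 0.36 (SE; edgeR adjusted p 0.706). Btg1, an antiproliferative gene, had 563, 736 and 749 CPM after PNX, against 392 and 485 CPM after sham. Fosl2 had 245 to 277 CPM after PNX, against 163 and 209 CPM after sham.

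Atf4, the effector of the integrated stress response, had 84.1, 60.3 and 58.7 CPM after PNX at day 14, against 265 and 121 CPM after sham. The groups are apart, with a log2 fold change of -1.51 ± 0.47 (SE; edgeR adjusted p 0.440). Sham replicate 1 is the high library, and the value stood at -0.85 without it and at -0.81 without the 3 libraries of highest background. Gadd45b had 126, 165 and 106 CPM after PNX, against 265 and 184 CPM after sham, also apart (log2 fold change -0.76 ± 0.41 SE, edgeR adjusted p 0.747). Jund had 176, 137 and 142 CPM after PNX, against 769 and 122 CPM after sham. Klf2 had 110, 94.6 and 114 CPM after PNX, against 371 and 97.5 CPM after sham. In both genes sham replicate 1 is high and sham replicate 2 is level with PNX. Their log2 fold changes of -1.55 ± 0.62 and -1.14 ± 0.47 (SE; edgeR adjusted p 0.665 and 0.671) stood at 0.30 and 0.11 without sham replicate 1. That library had the highest background of all, 1630 CPM, and was the highest library for 8 of the 40 genes (20%), as it was for 21.3% of all tested genes.

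Ppp1r15a had 273, 154 and 131 CPM after PNX at day 14, against 198 and 582 CPM after sham. Egr2 had 50, 23.9 and 22 CPM after PNX, against 33.9 and 112 CPM after sham. Here sham replicate 2 is the high library and replicate 1 lies within the PNX range. The log2 fold changes of -1.07 ± 0.44 and -1.20 ± 0.53 (SE; edgeR adjusted p 0.665 and 0.701) stood at 0.05 for both without sham replicate 2. Ier3 had 82.5, 145 and 70.6 CPM after PNX, against 255 and 104 CPM after sham (log2 fold change -0.85 ± 0.43 SE, edgeR adjusted p 0.747). PNX replicate 2 lies above sham replicate 2, so the groups overlap. The fold change stood at -0.07 without sham replicate 1 and at -0.03 without the 3 libraries of highest background. Junb had 486, 85.7 and 133 CPM after PNX, against 356 and 821 CPM after sham, and Fos 3840, 2333 and 2608 CPM after PNX, against 2436 and 5754 CPM after sham. For both, the groups overlap.

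By role, 8 of 10 AP-1 and ATF factors and 5 of 8 Egr, Klf and Myc genes were lower after PNX at day 14. So were 6 of 7 genes of the Ier and Gadd45 kind, 7 of 10 feedback inhibitors and 4 of 5 heat shock genes. Of all genes tested, 8779 were lower and 7227 higher. Without sham replicate 2, 15 of the 40 genes were lower and 25 higher, so these counts rest on that library. All 15 haematopoietic markers had a lower fitted level after PNX, with a median log2 fold change of -2.70. By edgeR 0 of them passed, and 10 had an unadjusted p below 0.05, where 3.63% of all genes were lower. Their summed level was 744, 512 and 309 CPM after PNX, against 848 and 689 CPM after sham. The median was 0.21 for the endothelial markers (6 higher, 4 lower), -0.30 for the epithelial (5 higher, 7 lower) and 1.29 for the erythroid (4 higher, 1 lower). Of the mesenchymal markers 7 of 10 had a higher fitted level after PNX, with a median of 0.93. An unadjusted p below 0.05 was reached by 3 higher and 1 lower, where 3.19% and 3.63% of all genes were. By edgeR 0 of these passed either. Their part in the levels of the 40 genes was not tested.

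In the mean of both days, 0 of 40 genes passed by edgeR, where 0.137% of all genes passed as higher and 0.0562% as lower. Unadjusted, 12 genes were lower and 1 higher at a p below 0.05, where 6.37% and 3.92% of all genes were. DESeq2 called 7 of the 40, all lower, and limma voom 0, where these tools called 1.9% and 0.0437% of all genes in either direction. The smallest adjusted p belonged to Junb and Egr1, both 0.0755 by edgeR, with log2 fold changes of -2.49 ± 0.53 and -1.28 ± 0.29 (SE). Ppp1r15a followed at -1.32 ± 0.30 and Zfp36 at -1.49 ± 0.34 (SE).

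Whether the effect of PNX differed between the days was tested as the day 14 effect minus the day 7 effect. By edgeR 0 of 40 genes and 0% of all genes passed in either direction, and DESeq2 and limma voom called 0 of the 40. At an unadjusted p below 0.05 the difference was above 0 in 5 genes, Junb, Egr1, Klf10, Zfp36 and Zfp36l1, and below 0 in 5, Jund, Atf4, Klf2, Ier3 and Dusp2, where 4.16% and 4.6% of all genes were. Ier3 had the smallest p of the 40, with a difference of -1.84 ± 0.58 (SE) and an edgeR adjusted p of 0.364. A different effect at the 2 days is therefore not shown for any of these genes.

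Day 14 was also set against day 7 within each surgery. After sham, this uses the same sham libraries as the comparisons of PNX with sham, so it is no independent evidence. By edgeR 0 of 40 passed, where 0.0187% of all genes passed as higher and 0% as lower; DESeq2 called 7, all lower, and limma voom 0, where they called 4.18% and 0% of all genes in either direction. Unadjusted, 9 genes were lower and 3 higher at day 14 at a p below 0.05, where 7.94% and 6.32% of all genes were. Both sham libraries of day 14 lay below all 3 of day 7 in Jun, Junb, Egr1, Klf10, Ier2, Ppp1r15a, Zfp36, Zfp36l1 and Hspa1a, 9 genes or 22.5%, against 11.8% of all genes. In Hsp90aa1 alone of the 40 both lay above (2.5%, against 12.5%). Junb had the largest fold among these, with 356 and 821 CPM at day 14, against 1477, 7507 and 11387 CPM at day 7 (log2 fold change -3.53 ± 0.90 SE, edgeR adjusted p 0.116).

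For day 14 against day 7 after PNX, edgeR passed 0 of 40 genes and 0% of all genes, and DESeq2 and limma voom called 0. At an unadjusted p below 0.05, 4 genes were lower and 2 higher at day 14, where 3.13% and 3.72% of all genes were. The groups were apart in 5 genes that were lower at day 14, Klf6, Ier3, Ppp1r15a, Hspa1a and Hspa1b (12.5%, against 9.08%), and in 5 that were higher, Fosl1, Fosl2, Klf4, Zfp36l1 and Btg1 (12.5%, against 9.02%). All 5 heat shock genes had a lower fitted level at day 14, as did 8657 of all 16011 genes tested. The groups of Hspa8, Hsp90aa1 and Dnajb1 overlapped, with log2 fold changes of -0.34 ± 0.36, -0.07 ± 0.43 and -0.60 ± 0.41 (SE). Hspa1a had 289, 147 and 157 CPM at day 14, against 711, 1098 and 303 CPM at day 7, with a log2 fold change of -1.83 ± 0.68 (SE; edgeR adjusted p 0.714).

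Genes of the same pathways outside the 40 were read from lists, in which 0 genes passed at either day by edgeR. At day 7, of 28 other immediate early genes tested 19 were lower and 9 higher, with a median log2 fold change of -0.51 against 0.03 for all genes. An unadjusted p below 0.05 was reached by 9, all lower, where 8.07% of all genes were lower. Nr4a1, an orphan nuclear receptor of the early response, had 669, 846 and 634 CPM after PNX, against 2255, 3593 and 8393 CPM after sham. Its groups do not overlap, with a log2 fold change of -2.73 ± 0.51 (SE; edgeR adjusted p 0.0606). Socs3, a feedback inhibitor of cytokine signalling, had 133, 119 and 210 CPM after PNX, against 213, 576 and 1670 CPM after sham. This gene's log2 fold change was -2.41 ± 0.59 (SE; edgeR adjusted p 0.102). At day 14, 21 of the 28 were lower and 7 higher, with a median of -0.25.

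Of the 7 tested factors of the serum response and ternary complex list, 6 were lower and 1 higher at day 7, with a median of -0.84. Unadjusted p was below 0.05 for 3 lower and 1 higher. Of all genes tested, 8.07% were lower and 4.66% higher at that p. The coactivator gene Mkl1 stood at -1.52 ± 0.50 (SE, edgeR adjusted p 0.194). It had 10.4, 9.97 and 6.04 CPM after PNX, against 6.61, 30.5 and 38.3 CPM after sham, so sham replicate 1 lay within the PNX range. The ternary complex gene Elk3 stood at 1.43 ± 0.47 (SE, edgeR adjusted p 0.189), also with overlapping groups. Among 19 other bZIP factors 10 were lower and 9 higher, with a median of -0.14 and an unadjusted p below 0.05 for 4 lower and 1 higher. Atf6b stood at -1.70 ± 0.49 and Mafk at -1.26 ± 0.39 (SE, edgeR adjusted p 0.139 and 0.161). In both genes sham replicate 1 lay within the PNX range, so the groups overlap. Of 22 other Klf and Dusp genes 14 were lower and 8 higher, with a median of -0.13. Unadjusted p was below 0.05 for 2 lower and 0 higher, where the lower share is near that of all genes. Klf15 stood at -1.40 ± 0.41 and Klf11 at -1.02 ± 0.36 (SE). Klf15 also stood at -2.03 ± 0.45 (SE; edgeR adjusted p 0.119) at day 14.

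Of 16 other RNA decay and NF-kappaB genes 12 were lower and 4 higher at day 7, with a median of -0.32. Unadjusted p was below 0.05 for 4 lower and 1 higher. Of all genes tested, 8.07% were lower and 4.66% higher at that p. Btg3, a relative of Btg1 and Btg2, had 22.3, 24.9 and 19.5 CPM after PNX, against 6.47, 8.59 and 5.51 CPM after sham, with a log2 fold change of 1.70 ± 0.38 (SE; edgeR adjusted p 0.0819). Rela, the transactivating subunit of NF-kappaB, stood at -1.44 ± 0.40 (SE, edgeR adjusted p 0.134). It had 38.9, 51.5 and 29.2 CPM after PNX, against 41.7, 118 and 164 CPM after sham, so the groups overlap. Of 26 other heat shock chaperones and their Hsf regulators 14 were higher and 12 lower (median 0.04; unadjusted p below 0.05 for 1 in each direction). The regulator gene Hsf1 had 23.3, 17.7 and 29.8 CPM after PNX, against 51.7, 45.1 and 84.5 CPM after sham, while the mitochondrial co-chaperonin gene Hspe1 had 63.1, 97.7 and 64.1 CPM after PNX, against 38.9, 38.7 and 25.8 CPM after sham. Both pairs of groups are apart. Of 14 targets of Atf4 in the integrated stress response 8 were higher and 6 lower, with a median of 0.06. Unadjusted p was below 0.05 for 2 higher and 1 lower. Sesn2 stood at -2.08 ± 0.77 and Psat1 at 1.15 ± 0.53 (SE, edgeR adjusted p 0.243 and 0.371). Sham replicate 1 lay within the PNX range for Sesn2, while the groups of Psat1 were apart. At day 14 the medians of these lists were -0.40 for the serum response and ternary complex factors, -0.21 for the bZIP factors, 0.10 for the Klf and Dusp genes, 0.04 for the RNA decay and NF-kappaB genes, -0.03 for the heat shock list and -0.24 for the Atf4 targets, against -0.07 for all genes.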

How the data were processed

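Whole read counts per gene symbol, deposited by the authors, were used for 11 libraries without change. Per the labels, extraction used the RNeasy Micro Kit and library preparation a NEBNext kit meant for very little RNA. Per the submitters' processing notes, bcl2fastq 2.20.0.422 and mm10 were used; the aligner, the counting tool, the annotation and the strand setting are not given in the sources used here. Groups came from the labels.

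The main tool was edgeR 4.0.16 in R 4.3.3. filterByExpr left 16011 genes. With TMM factors, the 4 groups were fitted together by robust quasi-likelihood (residual degrees of freedom 7, prior 10.8 in the median) to give F tests, with Benjamini-Hochberg adjustment over all genes tested and a threshold of 0.05. The SE of a log2 fold change is its size over the root of F. CPM are scaled by TMM factors, except for the background. The other settings were DESeq2 1.42.0, limma 3.58.1 voom, RLE factors, total counts, other filters, only the groups compared, a replicate block, a GC offset (lowess of span 0.5, fitted to 9684 genes with a log2 CPM over 3), and leaving out each library in turn or the 3 with most background. Symbols were matched to GENCODE M21 for 98.5%. Motifs were searched on both strands. Steps were tested on simulated data. None of the 10 pairs of libraries within groups agreed within sampling noise.

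The 40 members and all lists were chosen with earlier results of these data known. Values per library are given for the 12 members of smallest p at day 7 and the 8 at day 14. Of each pathway list outside the 40 the 2 genes of smallest p at day 7 are named, many by fold change only. Other genes named were chosen after their values were seen. Figures were drawn with matplotlib 3.10.9.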

Additional observations from a re-analysis of the deposited data

How the results depend on the processing

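With all libraries, TMM factors and the filter on low counts, no gene of the 40 passed by edgeR in any comparison. Shares in brackets are those of all genes tested that passed under the same setting. At day 7 the count was 10 by DESeq2 (2.85%), 8 by limma voom (5.16%) and 6 without a filter on low counts (0.773%). With each library left out in turn it ranged from 0 to 7: leaving out replicate 1 of sham at day 7 gave 7 (2.66%), either sham library of day 14 gave 4 (0.486% and 0.531%), and replicate 1 of PNX at day 14 gave 1, Junb (0.0542%). All of these were lower after PNX. In the mean of both days it was 7 by DESeq2 (1.9%), 4 without a filter (0.443%), 3 without the 3 libraries of highest background (0.615%), 2 by total counts (0.312%), and 0 to 7 with a library left out. It was 7 when replicate 1 of sham at day 7 was left out (1.2%), 5 for replicate 1 of sham at day 14 (0.743%) and 2 for replicate 1 of PNX at day 14 (0.445%), again all lower. For the difference between the days it was 0 to 3 (3 without sham day 14 replicate 2: Jund, Klf10 and Ier3; 2.09%). For day 14 against day 7 after sham it was 7 by DESeq2 (4.18%) and 0 to 9 with a library left out: 9 when replicate 2 of sham at day 14 was left out (5.41%) and 4 for replicate 1 of sham at day 7 (3.41%). It was 0 under every setting run for PNX against sham at day 14 and for the days after PNX. The cause of these shifts was not tested.

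At day 14 the log2 fold change changed sign for Jund (0.34) and Klf2 (0.15) without the 3 libraries of highest background, which leaves 1 sham library of that day, assumed to vary like the other groups; with 1 library left out in turn they ran from -2.20 to 0.30 and from -1.66 to 0.11, the upper ends without sham day 14 replicate 1. Ppp1r15a ran from -1.66 to 0.05 and Egr2 from -1.82 to 0.05, the upper ends without sham day 14 replicate 2. None of the 12 genes of smallest p at day 7 changed sign under any setting run. With the GC offset Fosl1 stood at 0.47, Fosl2 at 0.01 and Rhob at 0.08 at day 7. The 13 genes below sham in every PNX library at day 7 numbered 11 to 16 under settings chosen after seeing the data, at 6.63% (total counts) to 23.6% (without the 3 libraries of highest background) of all genes. By total counts the median of all genes was 0.212 at day 7 and -0.263 at day 14, against 0.03 and -0.072 with TMM factors.

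Whether replicate numbers pair the libraries was not settled. Deviations of same-numbered libraries from their group means correlated between -0.592 and 0.532, over 0.1 in 3 of 15 pairs, most of which cross days. Between PNX and sham of the same day the values were -0.116, 0.532 and 0.339 at day 7 (replicates 1, 2 and 3). At day 14 they were 0.1 and 0.183 (replicates 1 and 2). Libraries of different numbers were not compared, so a pairing by number can be neither shown nor excluded. With the replicate number as a block, 0 of 40 genes passed in every comparison, as with the GC offset. The mean of both days and the difference between days could not be fitted on the groups of 1 day alone. Depth limits Dusp2, Dusp5 and Fosl1 most, and with 2 or 3 libraries a group a p above the threshold does not show that levels were equal.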
